A study of Saccharomyces cerevisiae with 20 samples.

Results

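The transcripts described here are 10 of the 6106 measured in budding yeast and encode proteins that bring iron into the cell. They comprise 4 siderophore transporters (ARN1, ARN2, SIT1 and ENB1), 3 cell wall mannoproteins (FIT1, FIT2 and FIT3) and 3 proteins of reductive iron uptake (FET3, FTR1 and FRE1). The list was chosen by gene symbol and function, at a time when results of these data were known, and no threshold on a measured value was applied. ENB1 in particular was picked by the study for its WT capture values, past the study's limit in NADcapPro and not in SPAAC. Its WT values of NADcapPro or SPAAC over RNA-seq and of NADcapPro over SPAAC are therefore given as a description without a test, and its other comparisons with those libraries are not independent of that choice. RNA came from cells of the laboratory strain BY4741 grown in YPD, a rich medium, and taken in exponential phase. In the xrn1-H41A strain an amino acid substitution leaves Xrn1 unable to remove NAD caps while it keeps its exoribonuclease activity, and the WT strain carries the normal protein. Both strains were profiled by NADcapPro, by SPAAC and by standard RNA-seq, with 3 libraries for each of the 6 combinations and 18 libraries in all. In SPAAC the enzyme ADPRC swaps the nicotinamide of an NAD cap for an azide, which is clicked to biotin and recovered on streptavidin. NADcapPro precedes the same steps with Dcs1, an enzyme that hydrolyses m7G caps, because ADPRC also reacts with part of the m7G-capped RNA.

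As background, yeast takes up iron by a pair of routes that are turned on together when iron is scarce by the transcription factor Aft1 and its paralog Aft2. In the reductive route a surface reductase such as Fre1 reduces ferric iron, and a complex of the multicopper oxidase Fet3 and the permease Ftr1 carries it across the plasma membrane. In the other route, iron already bound to siderophores made by other microbes is retained in the cell wall by the Fit mannoproteins and imported whole by the Arn transporters. Arn1 takes up ferrirubin and related ferrichromes, Arn2 triacetylfusarinine C, Sit1 ferrioxamine B and Enb1 enterobactin. Aft1 binds DNA that holds the core CACCC, most often as TGCACCC.

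That motif was looked for on both strands in the 500 bases before the annotated start of each gene. TGCACCC was found upstream of 9 of the 10 members, against 2.28% of 6096 yeast promoters of the same length, and FRE1 was the member without it. Both routes are known to be turned on by Aft1, so the motif and the list are not independent of each other. GGCACCC was found upstream of 0 members and in 2.1% of promoters, and the shorter CACCC, which both contain, upstream of 10 members and in 33.5%. The 9 members held 16 TGCACCC sites between 125 and 447 bases before the start, 4 of them at FIT2. The site nearest to the start of each gene is shown with 10 bases on either side and the motif in capitals, because this motif is what the promoters share. Sequences are read from the R64 reference, 5′ to 3′ on the strand that carries the motif, and a match describes the letters in this window and not binding.
ARN1 (chrVIII:21215-21241, minus strand, 254 bases before the start): tttatcaaaaTGCACCCataaaagcag
ARN2 (chrVIII:10644-10670, plus strand, 441 bases before the start): aactaagaacTGCACCCattttctgat
SIT1 (chrV:27459-27485, minus strand, 182 bases before the start): cgaaccagatTGCACCCtcaaatgtgt
ENB1 (chrXV:21432-21458, minus strand, 131 bases before the start): ggcttacaatTGCACCCctctgtggct
FIT1 (chrIV:1505066-1505092, plus strand, 176 bases before the start): ttcattttttTGCACCCtttcctagaa
FIT2 (chrXV:1059390-1059416, minus strand, 125 bases before the start): ctaattatacTGCACCCagttagattc
FIT3 (chrXV:1061223-1061249, plus strand, 178 bases before the start): cccattttttTGCACCCtttcctagaa
FET3 (chrXIII:388561-388587, plus strand, 245 bases before the start): tcttcaaaagTGCACCCatttgcaggt
FTR1 (chrV:461899-461925, minus strand, 169 bases before the start): cgtagatgaaTGCACCCgatttctaag

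The windows of FIT1 and FIT3 were identical at 25 of 27 bases, in a single run of 25, although the genes lie on different chromosomes. No other pair of the 16 windows matched at more than 19 bases. Each member is annotated as a single exon, overlaps no other annotated gene, and shares no run of 31 bases with another transcript, so reads of 1 member are not expected to be assigned to another.

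FIT2 (chrXV:1059531-1059992) and FIT3 (chrXV:1060441-1061055) are neighbours 448 bases apart and point towards each other. At 462 and 615 bases they are also the shortest members, the others being 1215 to 2061 bases long. The 4 transporters and the 3 FIT genes all lie within 40 kb of a chromosome end, between 8.35 kb for ARN2 and 31.3 kb for FIT2, whereas 8.71% of 6098 placed transcripts do. The reductive genes lie farther in, at 115 kb for FTR1, 389 kb for FET3 and 508 kb for FRE1. The limit of 40 kb was set after the positions of the members had been seen.

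Between 13038320 and 33816015 counts were assigned per library, with a median of 27409566. Levels are given as CPM, counts per 1000000 assigned counts with TMM scaling over the 18 libraries, in the order of replicates 1, 2 and 3. XRN1 itself was between 319 and 325 CPM in xrn1-H41A RNA-seq, against 488 to 500.3 CPM in WT RNA-seq, and counts per transcript cannot show its substitution. Differences were tested with edgeR over all transcripts of the groups compared, and a transcript passed at an adjusted p of at most 0.01 and was called if it also differed at least 2-fold. Most transcripts passed in every comparison but the strain by SPAAC interaction, so each count of members is given beside the share of all transcripts. By the methods, the libraries of a group are independent biological replicates, and the p-values measure the spread between them.

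In standard RNA-seq the siderophore transporters stood higher in xrn1-H41A than in WT, by the most for ENB1 and ARN2, while the reductive genes were nearly level. Called higher were 2 of the 10 members, ARN2 and ENB1, where 7.69% of 5965 transcripts were called higher, and 0 members were called lower, where 2.53% of transcripts were. Passing without regard to size were 6 members that were higher, against 36.2% of transcripts, and 1 that was lower, against 34.8%. The median log2 fold change was 0.50 over the members and 0.00 over all transcripts. All 3 xrn1-H41A libraries lay above all 3 WT libraries for 9 members and below them for FTR1. Such a separation was common, with 41.1% of 5885 transcripts all above and 39.1% all below.

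ENB1 had 616, 591 and 581 CPM in xrn1-H41A RNA-seq, against 229, 225 and 224 CPM in WT RNA-seq. The groups were far apart and the libraries within each nearly equal, for a 2.63-fold higher level (log2 fold change 1.40 ± 0.04 SE, edgeR adjusted p = 3.2e-13). ARN2 had 247, 229 and 233 CPM in xrn1-H41A, against 97.2, 90.4 and 96.6 CPM in WT, which is 2.50-fold higher (log2 fold change 1.32 ± 0.04, edgeR adjusted p = 5.9e-13). SIT1 came close to the 2-fold limit, with 290.4, 256 and 262 CPM in xrn1-H41A, against 138, 145 and 136 CPM in WT (log2 fold change 0.95 ± 0.05, edgeR adjusted p = 1.5e-10). ARN1 was the least changed transporter, with 165, 149 and 152 CPM in xrn1-H41A, against 107, 106 and 106 CPM in WT (log2 fold change 0.55 ± 0.04, edgeR adjusted p = 1.9e-08). For SIT1 and ARN1 the first xrn1-H41A library was the highest of its group, and neither gene's groups overlapped. Summed, the 4 transporters took 1257 ± 53.0 CPM in xrn1-H41A and 566 ± 4.36 CPM in WT (SD, n = 3 each).

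The cell wall proteins differed among themselves. FIT2 had 147, 149 and 139 CPM in xrn1-H41A RNA-seq, against 89.6, 91.4 and 88.0 CPM in WT RNA-seq (log2 fold change 0.69 ± 0.04, edgeR adjusted p = 4.5e-10). Its neighbour FIT3 had 324, 322 and 326 CPM in xrn1-H41A, against 235, 232 and 246 CPM in WT (log2 fold change 0.44 ± 0.04, edgeR adjusted p = 5.4e-08). Both passed the test without reaching 2-fold. FIT1 was the scarcest member, with 19.8, 19.5 and 20.3 CPM in xrn1-H41A, against 18.8, 17.7 and 17.7 CPM in WT, and did not pass (log2 fold change 0.14 ± 0.08, edgeR adjusted p = 0.11).

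Among the reductive genes, differences were small. FET3 had 531, 479.8 and 484 CPM in xrn1-H41A RNA-seq, against 453, 435 and 464 CPM in WT RNA-seq, and narrowly missed the test (log2 fold change 0.14 ± 0.05, edgeR adjusted p = 0.012). FRE1, with 365, 315 and 318 CPM in xrn1-H41A, against 301, 301 and 298 CPM in WT, missed it too (log2 fold change 0.15 ± 0.05, edgeR adjusted p = 0.022). In both, the first xrn1-H41A library stood above the other two. FTR1, the partner of FET3 in the same complex, had 346, 325 and 336 CPM in xrn1-H41A, against 378, 373 and 389.6 CPM in WT. It fell by 0.18 ± 0.04 on the log2 scale (edgeR adjusted p = 0.0010), a difference that became -0.0003 with scaling by library totals only, which moves the median of all transcripts to 0.18. Under that scaling FIT1, FET3 and FRE1 passed at 0.32, 0.32 and 0.33, and SIT1 was called at 1.13. FET3, FTR1 and FRE1 together took 1167 ± 65.5 CPM in xrn1-H41A and 1131 ± 20.9 CPM in WT (SD, n = 3 each).

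**Figure D1:**
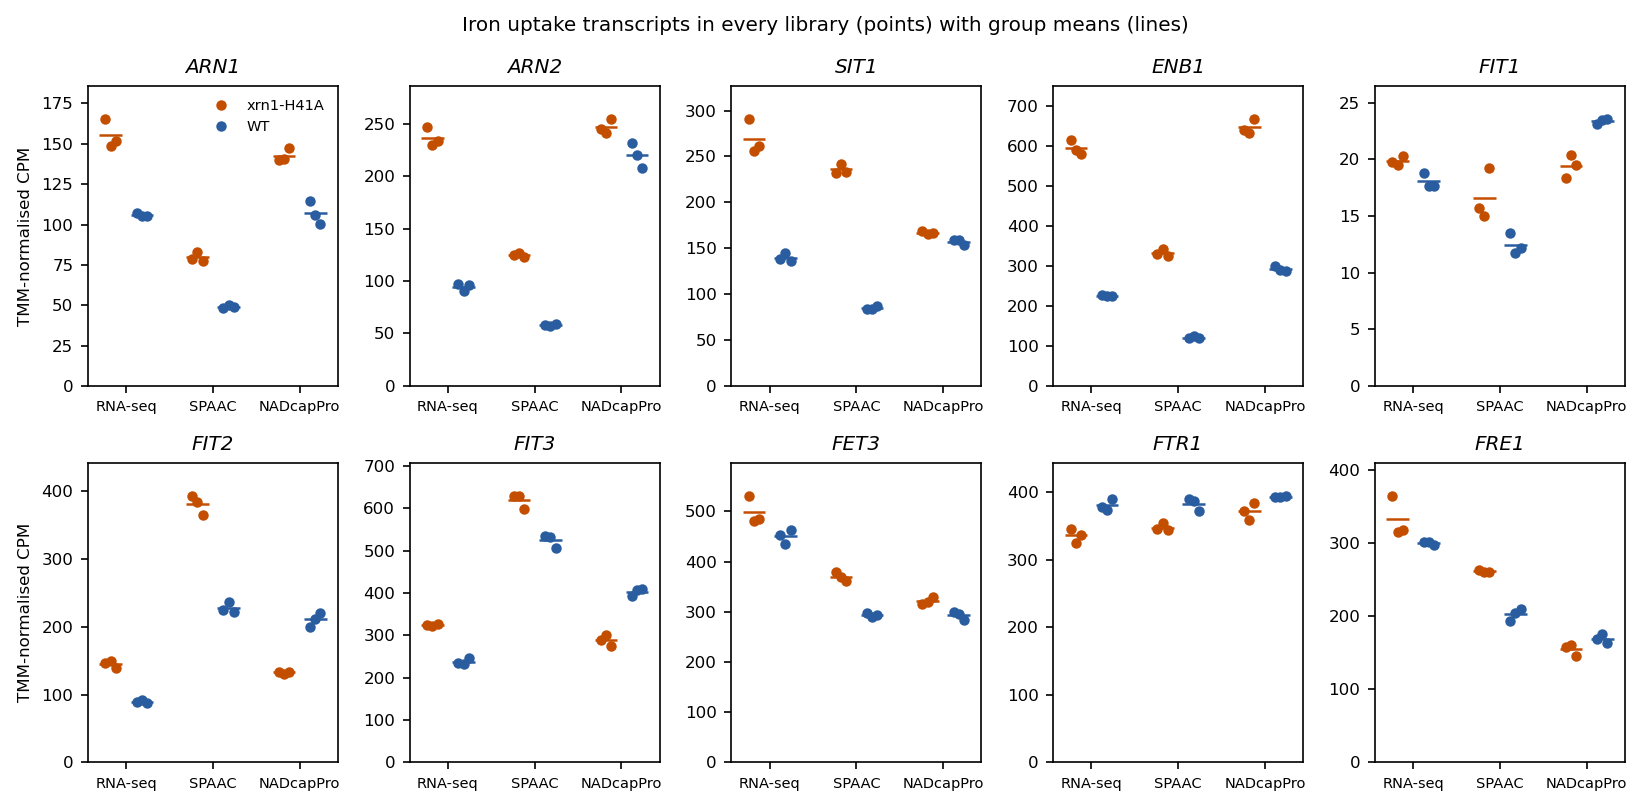
Levels of the 10 iron uptake transcripts in TMM-normalised CPM (vertical axes, from 0, 1 panel per gene) in each library (points) with group means (lines), for xrn1-H41A (orange) and WT (blue) within RNA-seq, SPAAC and NADcapPro. ENB1 lies between 581 and 616 CPM in xrn1-H41A RNA-seq, above 224 to 229 CPM in WT, and FIT2 and FIT3 are lower in xrn1-H41A than in WT in NADcapPro, the opposite of RNA-seq.

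Levels of different genes can be compared per length, as TPM, which scales each count by transcript length and by the total of the library. In xrn1-H41A RNA-seq the order of mean TPM was FIT3 (438 ± 12.3), FIT2 (308 ± 14.0), ENB1 (201 ± 8.27), FTR1 (174 ± 9.78), FET3 (156 ± 11.2), FRE1 (97.0 ± 9.62), SIT1 (87.0 ± 7.49), ARN2 (78.1 ± 4.55), ARN1 (51.5 ± 3.83) and FIT1 (7.45 ± 0.307), each with its SD over 3 libraries. Neighbours whose libraries overlapped in that order were FTR1 with FET3, FRE1 with SIT1, and SIT1 with ARN2. In WT RNA-seq the order was FIT3 (277 ± 8.48), FTR1 (168 ± 4.65), FIT2 (163 ± 2.06), FET3 (121 ± 4.99), FRE1 (74.7 ± 0.941), ENB1 (65.4 ± 1.61), SIT1 (38.6 ± 0.917), ARN1 (29.9 ± 0.569), ARN2 (26.7 ± 1.51) and FIT1 (5.80 ± 0.241), where FTR1 and FIT2 overlapped. ENB1 thus stood below the reductive genes in WT and above them in xrn1-H41A.

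Position along the chromosome moved with the strain difference. Of 497 other transcripts within 40 kb of a chromosome end, 23.5% were called higher in xrn1-H41A RNA-seq, with a median log2 fold change of 0.40, against 6.22% of 5454 transcripts farther in, with a median of -0.01. Called higher in SPAAC were 15.9% within 40 kb (median 0.17) and 4.12% farther in (-0.0029), and in NADcapPro 35.5% within 40 kb (median 0.56) and 10.1% farther in (-0.04). The transporters and FIT genes lie in the first set and the reductive genes in the second. The part of position in the difference of the members was not tested.

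Further genes of iron metabolism were followed as lists, in the same RNA-seq comparison. Of 16 other genes of the iron regulon, 10 were higher, 4 were lower and 5 were called, all higher, with a list median of 0.64, where 36.2% of all transcripts were higher, 34.8% lower and 7.69% called higher. Led by FRE3 (log2 fold change 1.94 ± 0.06, edgeR adjusted p = 3.4e-13), FRE5 (1.84 ± 0.05, 2.9e-13) and FRE2 (1.70 ± 0.07, 1.3e-11), the called genes included reductases, of which Fre2 and Fre3 act on iron bound to siderophores. FRE2, FRE3 and FRE5 also lie within 40 kb of a chromosome end, where 23.5% of transcripts other than the members were called higher. The part of position in their difference was not tested. FRE3 had 100.3, 94.5 and 89.9 CPM in xrn1-H41A and 25.5, 23.5 and 25.3 CPM in WT, and 99.8% of its 31-base runs are its own, the rest being shared with FRE2. FRE5 lies 508 bases from FIT3, and its groups, at 122, 110 and 112 CPM in xrn1-H41A against 31.3, 31.4 and 33.0 CPM in WT, did not overlap.

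Among 9 genes of iron sensing and storage, 4 were higher and 5 lower with a median of -0.18, and YAP5, an activator of iron storage genes at high iron, was the 1 called (log2 fold change 1.14 ± 0.07, edgeR adjusted p = 7.4e-10). Among 13 genes whose proteins require iron, 4 were higher and 7 lower with a median of -0.46, and the 1 called was higher, ACO1, the iron-sulfur enzyme aconitase of the citric acid cycle (1.15 ± 0.04, edgeR adjusted p = 1.9e-12). ACO1 had 571, 587 and 588 CPM in xrn1-H41A, against 270.1, 258 and 257 CPM in WT. Whether these lists differ from each other was not tested.

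Other metals were set beside iron. Of 7 copper regulon genes tested, 2 were higher, 3 were lower and FRE7, a reductase induced by copper shortage, was called (log2 fold change 1.06 ± 0.07, edgeR adjusted p = 2.9e-09). Of 6 zinc regulon genes, 5 were higher, 1 was lower and 4 were called, all higher. Of all transcripts 36.2% were higher, 34.8% lower and 7.69% called higher. The zinc list median was 1.18, against 0.50 for the members and 0.64 for the other iron regulon genes. The part of position along the chromosome in the copper and zinc values was not tested. The zinc genes called included the high-affinity transporter ZRT1 (1.50 ± 0.05, edgeR adjusted p = 2.2e-12), the low-affinity transporter ZRT2 (1.21 ± 0.04, 4.4e-13) and ZPS1 (1.27 ± 0.08, 1.8e-09).

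**Figure D2:**
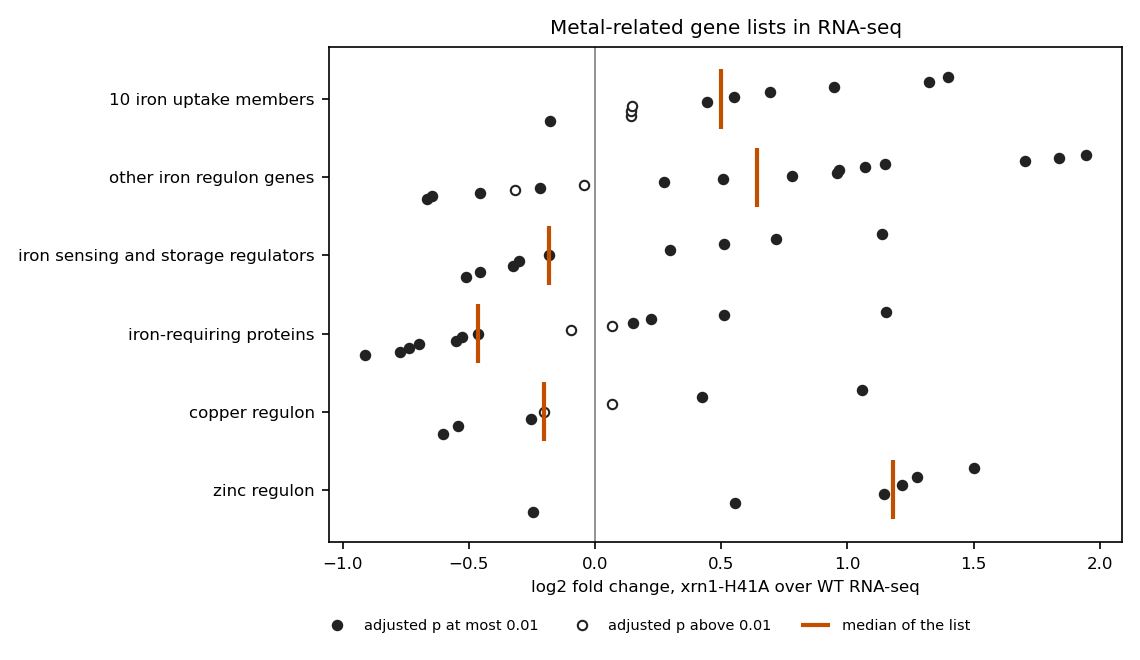
Log2 fold change of xrn1-H41A over WT in RNA-seq (horizontal axis) for each gene of 6 metal-related lists (rows), filled where the edgeR adjusted p is at most 0.01, with the list median as an orange line. The median lies at 0.50 for the 10 iron uptake transcripts, 0.64 for the other iron regulon genes, -0.46 for iron-requiring proteins and 1.18 for the zinc regulon.

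The strains were next compared within SPAAC, which holds m7G-capped RNA beside NAD-capped RNA. There 3 of 10 members were called higher in xrn1-H41A, ARN2, SIT1 and ENB1, against 5.15% of 5965 transcripts, and 0 were called lower, against 3.29%. Passing were 9 members that were higher and 1 that was lower, against 35.4% and 35.3% of transcripts. The member median was 0.58 and that of all transcripts 0.01. SIT1 had 232, 242 and 234 CPM in xrn1-H41A SPAAC, against 84.0, 84.3 and 87.2 CPM in WT SPAAC, a 2.81-fold higher level (log2 fold change 1.49 ± 0.03, edgeR adjusted p = 1.1e-16). ENB1 had 329, 342 and 326 CPM in xrn1-H41A, against 119.5, 125 and 119 CPM in WT (log2 fold change 1.48 ± 0.03, edgeR adjusted p = 8.2e-17). Neither set of groups overlapped. The same held for every member, 9 all above and 1 all below, where 38.1% of 5846 transcripts were all above and 41.6% all below. ARN2 was 2.19-fold higher, but 0.99 on the log2 scale with the length trend removed, which ends its call and leaves 2. ARN1 was 1.66-fold higher and FIT2 1.70-fold. The other members that were higher reached at most 1.34-fold, and the lower one, FTR1, fell by 0.12 ± 0.03 on the log2 scale but was 0.06 higher, with library totals alone, which moves the median of all transcripts to 0.19.

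In NADcapPro, ENB1 was higher in xrn1-H41A and the 3 FIT transcripts lower, although FIT1 was not with library totals alone. Called higher in xrn1-H41A was 1 of 10 members, ENB1, against 12.2% of 6044 transcripts, and 0 were called lower, against 9.1%. Passing were 4 members that were higher and 5 that were lower, against 41.1% and 41.5% of transcripts, and the medians of members and of all transcripts were -0.02 and -0.01. ENB1 had 642, 633 and 667 CPM in xrn1-H41A NADcapPro, against 300.3, 291 and 288 CPM in WT NADcapPro (log2 fold change 1.12 ± 0.03, edgeR adjusted p = 7.2e-16). ARN2, which differed 2.50-fold in RNA-seq, had 245, 241 and 254 CPM in xrn1-H41A and 232, 219.7 and 207 CPM in WT here (log2 fold change 0.14 ± 0.04, edgeR adjusted p = 0.0019). SIT1 was likewise close, at 169, 165 and 167 CPM in xrn1-H41A and 159, 159 and 154 CPM in WT, and did not pass (log2 fold change 0.06 ± 0.03, edgeR adjusted p = 0.072). Of the transporters, then, ENB1 kept a difference above 2-fold, and ARN1 was 1.31-fold higher.

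The FIT transcripts were lower in xrn1-H41A NADcapPro. FIT2 had 133, 131 and 134 CPM in xrn1-H41A, against 199.5, 212 and 221 CPM in WT (log2 fold change -0.69 ± 0.04, edgeR adjusted p = 1.2e-11). FIT3 had 289, 300.3 and 274 CPM in xrn1-H41A, against 393, 408 and 409 CPM in WT (log2 fold change -0.51 ± 0.03, edgeR adjusted p = 1.6e-10). In both genes every xrn1-H41A library lay below every WT library, where in RNA-seq every one lay above. Such a separation was common in NADcapPro too, with 43.1% of 5958 transcripts all below and 45.3% all above. FIT1, at 18.4, 20.4 and 19.5 CPM in xrn1-H41A and 23.1, 23.5 and 23.5 CPM in WT, fell by 0.29 ± 0.06 (edgeR adjusted p = 4.5e-04), but was 0.07 higher with library totals alone, which moves the median of all transcripts to 0.35. That scaling also turned FTR1 (-0.10 ± 0.03 on the log2 scale) to 0.26 and FRE1 (-0.15 ± 0.04) to 0.21, while FIT2 and FIT3 stayed lower at -0.33 and -0.15. FET3 was 1.08-fold higher. The FIT genes lie within 40 kb of a chromosome end, where the median of other transcripts in this comparison was 0.56.

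**Figure D3:**
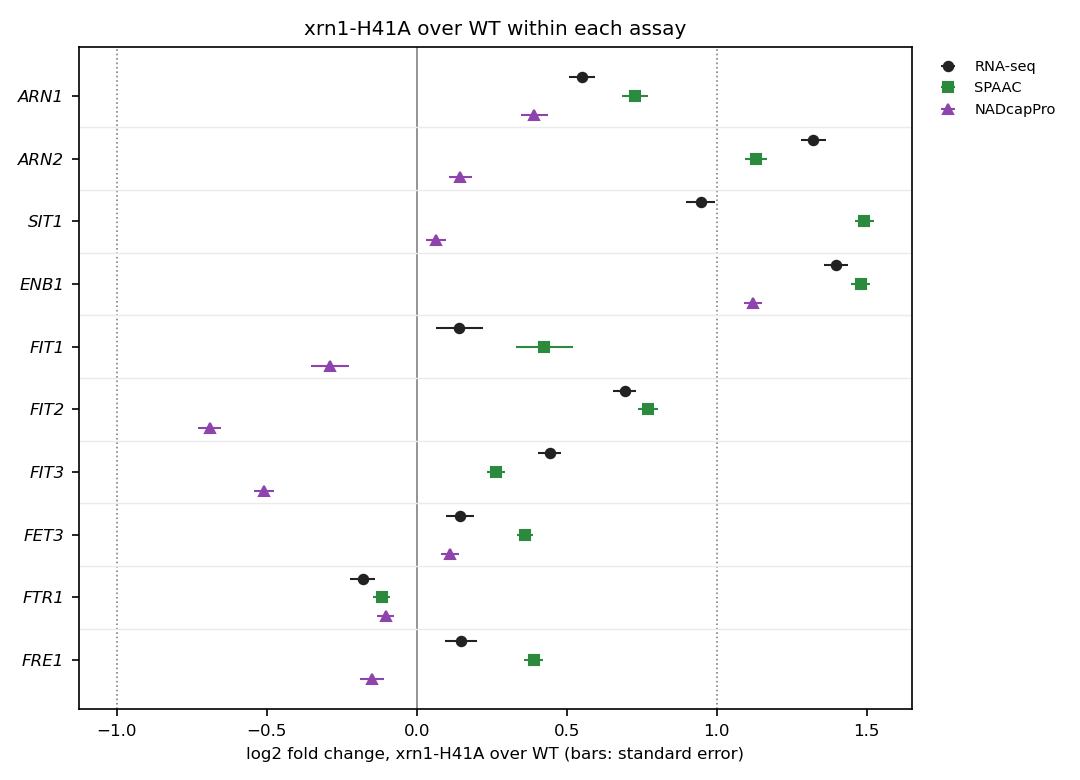
Log2 fold change of xrn1-H41A over WT (horizontal axis, bars are standard errors, dotted lines mark 2-fold) for each iron uptake transcript (rows) within RNA-seq (circles), SPAAC (squares) and NADcapPro (triangles). ENB1 lies above 1 in all 3 assays, ARN2 at 1.32, 1.13 and 0.14, and FIT2 at 0.69, 0.77 and -0.69.

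Capture was read by setting SPAAC against RNA-seq of the same strain. ARN1, ARN2 and ENB1 were lower in SPAAC in both strains, SIT1 was lower in WT and did not pass in xrn1-H41A, and FIT2 and FIT3 were higher in both strains. In xrn1-H41A, 2 of 10 members were called higher, FIT2 and FIT3, against 4.39% of 5968 transcripts, and 0 were called lower, against 13.8%. Passing were 3 members that were higher and 5 that were lower, against 39% and 38.6% of transcripts. In WT, the same 2 members were called higher, against 4.77% of 5979 transcripts, and 1 was called lower, ARN1, against 15.9%. Passing in WT were 2 that were higher and 7 that were lower (39.9% and 39.6% of transcripts), with ENB1, a description only, among the 7. The member medians were -0.22 in xrn1-H41A and -0.60 in WT, with 0.00 and 0.02 over all transcripts.

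FIT2 had 393, 383 and 365 CPM in xrn1-H41A SPAAC, against 147, 149 and 139 CPM in xrn1-H41A RNA-seq (log2 fold change 1.48 ± 0.04, edgeR adjusted p = 4.9e-13). In WT it had 224, 236 and 221 CPM in SPAAC, against 89.6, 91.4 and 88.0 CPM in RNA-seq (log2 fold change 1.33 ± 0.04, edgeR adjusted p = 8.6e-14). FIT3 was 2.03-fold higher in xrn1-H41A and 2.19-fold higher in WT. FIT2 and FIT3 are the shortest members, and removal of the trend on transcript length over all transcripts lowered their values. Then FIT2 stood at 1.04 in xrn1-H41A and 0.84 in WT, and FIT3 at 0.58 in xrn1-H41A and 0.65 in WT, so that 1 member remained called in xrn1-H41A, FIT2, and 0 in WT. All of these values still passed the test. In a fit of all 18 libraries FIT3 stood at 0.93 in xrn1-H41A, which ends its call too. With library totals alone FIT3 stood at 0.64 in xrn1-H41A and 0.82 in WT, which ends its call in both strains.

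ARN1 had 78.7, 83.1 and 77.4 CPM in xrn1-H41A SPAAC, against 165, 149 and 152 CPM in xrn1-H41A RNA-seq (log2 fold change -0.88 ± 0.05, edgeR adjusted p = 4.2e-10). In WT it had 48.1, 49.9 and 48.7 CPM in SPAAC, against 107, 106 and 106 CPM in RNA-seq (log2 fold change -1.12 ± 0.03, edgeR adjusted p = 2.0e-13). ARN2 was 1.78-fold lower in xrn1-H41A SPAAC and 1.64-fold lower in WT SPAAC. SIT1 was 1.65-fold lower in WT, with 84.0, 84.3 and 87.2 CPM in SPAAC, but did not pass in xrn1-H41A, where its log2 fold change was -0.10 ± 0.05. ENB1 was 1.69-fold lower in xrn1-H41A SPAAC (log2 fold change -0.75 ± 0.04, edgeR adjusted p = 1.2e-10). As a description, its WT libraries held 119.5, 125 and 119 CPM in SPAAC and 229, 225 and 224 CPM in RNA-seq. After removal of the length trend the 4 transporters stood between -0.74 and -0.33 in WT, and in xrn1-H41A ARN1, ARN2 and ENB1 stood between -0.57 and -0.49, while SIT1 turned to 0.20 and passed. Library totals alone made ARN1, ARN2 and ENB1 called lower in xrn1-H41A, at -1.26, -1.22 and -1.14, with the median of all transcripts at -0.38.

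Of the reductive genes and FIT1, FET3, FRE1 and FIT1 were lower in WT SPAAC, and the xrn1-H41A values of FRE1 and FTR1 changed sign with the processing. FET3 had 378, 369.6 and 362 CPM in xrn1-H41A SPAAC, against 531, 479.8 and 484 CPM in RNA-seq (log2 fold change -0.34 ± 0.04), and its WT value was -0.63 ± 0.03. With the length trend removed FET3 stood at -0.02 in xrn1-H41A, without passing, and at -0.22 in WT. FRE1 was at -0.26 ± 0.05 in xrn1-H41A and -0.57 ± 0.04 in WT, yet with the length trend removed it stood at 0.17 in xrn1-H41A and -0.05 in WT. FTR1 was at 0.14 ± 0.04 in xrn1-H41A, a value that became -0.02 with the length trend removed and -0.25 with library totals alone, which moves the median of all transcripts to -0.38. In WT FTR1 was at 0.00 ± 0.03. FIT1 passed in WT at -0.53 ± 0.09 and did not pass in xrn1-H41A at -0.18 ± 0.09.

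NADcapPro set against RNA-seq used the same RNA-seq libraries as the SPAAC comparisons, so the values of both are not independent. In xrn1-H41A, 0 of 10 members were called higher, where 14.3% of 6046 transcripts were, and 1 was called lower, FRE1, where 9.87% of transcripts were. Passing were 2 members that were higher and 4 that were lower, against 43% and 41.4% of transcripts. In WT, 2 members were called higher, ARN2 and FIT2, against 13.1% of 6020 transcripts, and 0 lower, against 9.85%. Passing in WT were 6 that were higher and 2 that were lower (41.1% and 40.5% of transcripts), with ENB1, a description only, among the 6. The member median was -0.08 in xrn1-H41A and 0.27 in WT, with 0.02 and 0.01 over all transcripts.

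ARN2 had 245, 241 and 254 CPM in xrn1-H41A NADcapPro, against 247, 229 and 233 CPM in xrn1-H41A RNA-seq, and these groups overlapped (log2 fold change 0.11 ± 0.04, edgeR adjusted p = 0.015). In WT it had 232, 219.7 and 207 CPM in NADcapPro, against 97.2, 90.4 and 96.6 CPM in RNA-seq, a 2.32-fold higher level (log2 fold change 1.21 ± 0.05, edgeR adjusted p = 8.8e-12). Of these 4 groups WT RNA-seq stood apart from the other 3, which lay between 207 and 254 CPM. With the length trend removed the WT value was 1.47 and the xrn1-H41A value passed at 0.30, as it did at 0.36 with library totals alone. FIT2 had 133, 131 and 134 CPM in xrn1-H41A NADcapPro, against 147, 149 and 139 CPM in RNA-seq, and did not pass (log2 fold change -0.08 ± 0.04, edgeR adjusted p = 0.045). It passed at -0.45 with the length trend removed and at -0.13 in a fit of all 18 libraries. With library totals alone, which moves the median of all transcripts to 0.28, it passed in the other direction at 0.18. In WT FIT2 had 199.5, 212 and 221 CPM in NADcapPro, against 89.6, 91.4 and 88.0 CPM in RNA-seq (log2 fold change 1.23 ± 0.04, edgeR adjusted p = 2.5e-12), and 0.75 with the length trend removed, which ends its call.

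FIT3 was 1.69-fold higher in WT NADcapPro than in WT RNA-seq and, in xrn1-H41A, at -0.12 ± 0.04, which library totals alone turned to 0.13, with the median of all transcripts at 0.28. SIT1 had 169, 165 and 167 CPM in xrn1-H41A NADcapPro, against 290.4, 256 and 262 CPM in RNA-seq (log2 fold change -0.64 ± 0.05, edgeR adjusted p = 3.9e-09), while its WT value was 0.17 ± 0.04. ENB1 in xrn1-H41A was 1.12-fold higher in NADcapPro. As a description, ENB1 in WT held 300.3, 291 and 288 CPM in NADcapPro and 229, 225 and 224 CPM in RNA-seq, a difference of 0.38 on the log2 scale. That was short of the study's limit of 2-fold, as were 0.52 with library totals alone and 0.61 with the length trend removed. The study scored ENB1 as past that limit, and also detected it by circNC, a separate method based on circularized RNA. Why the value here differs from the study's was not tested. ARN1 did not pass in either strain, with -0.08 ± 0.04 in xrn1-H41A and 0.01 ± 0.04 in WT. With library totals alone ARN1 passed at 0.18 in xrn1-H41A and 0.16 in WT, and with the length trend removed at 0.12 and 0.28. In a fit of all 18 libraries ARN1 passed at -0.12 in xrn1-H41A. FIT1 was at 0.02 ± 0.07 in xrn1-H41A, without passing, and at 0.38 ± 0.07 in WT.

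Of the reductive genes, FET3 and FRE1 were lower in NADcapPro in both strains. FRE1 had 158, 161 and 146 CPM in xrn1-H41A NADcapPro, against 365, 315 and 318 CPM in RNA-seq (log2 fold change -1.05 ± 0.06, edgeR adjusted p = 1.1e-10). Its call rested on the first RNA-seq library of xrn1-H41A, without which the value was -0.99, and it also ended with the length trend removed (-0.79) or with library totals alone (-0.80). In WT FRE1 had 168, 176 and 163 CPM in NADcapPro, against 301, 301 and 298 CPM in RNA-seq (log2 fold change -0.83 ± 0.04). FET3 was at -0.59 ± 0.04 in xrn1-H41A and -0.62 ± 0.04 in WT. FTR1 was at 0.20 ± 0.04 in xrn1-H41A and, without passing, at 0.05 ± 0.03 in WT.

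**Figure D4:**
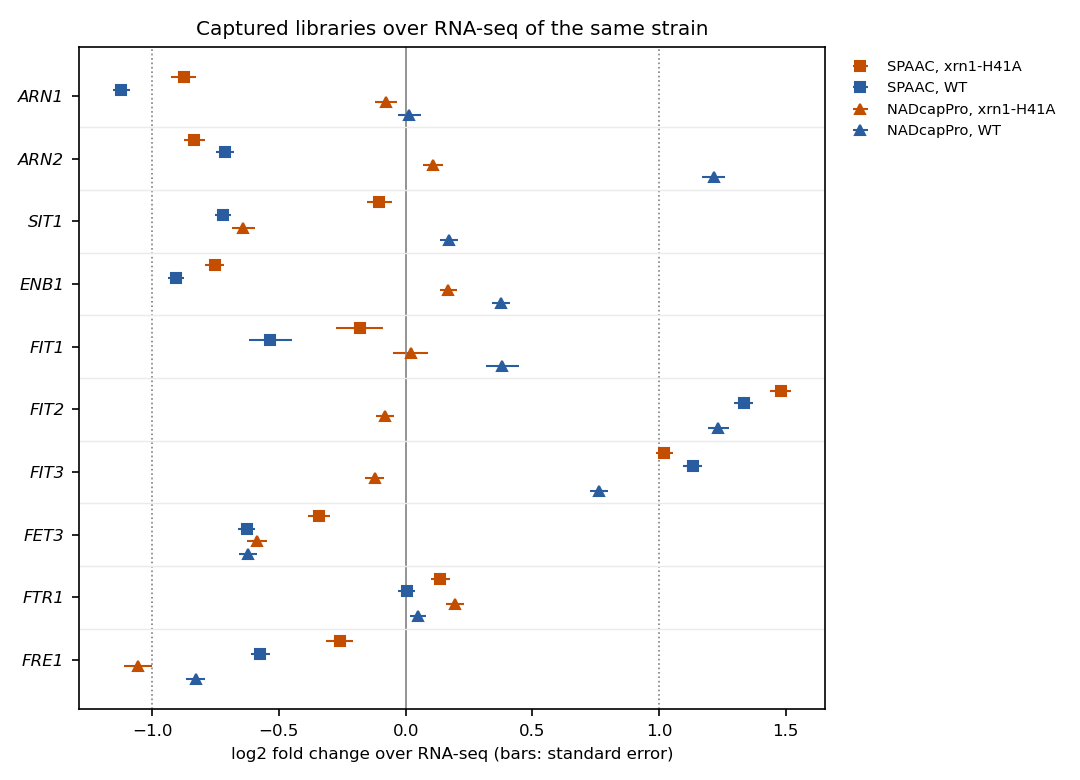
Log2 fold change of captured libraries over RNA-seq of the same strain (horizontal axis, bars are standard errors, dotted lines mark 2-fold) for each iron uptake transcript (rows), SPAAC as squares and NADcapPro as triangles, xrn1-H41A in orange and WT in blue. FIT2 lies above 1 in SPAAC of both strains and in WT NADcapPro but at -0.08 in xrn1-H41A NADcapPro, and ARN2 lies at 0.11 in xrn1-H41A NADcapPro and at 1.21 in WT NADcapPro.

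Whether capture differed between the strains was tested as an interaction in 1 model of 12 libraries. For NADcapPro, 2 of 10 members were called lower, meaning less capture over RNA-seq in xrn1-H41A than in WT, against 2.94% of 6059 transcripts, and 0 were called higher, against 4.19%. Passing were 6 members that were lower and 1 that was higher, against 30.2% and 33.7% of transcripts, with a median of -0.28 over the members and 0.05 over all transcripts. The 2 called were FIT2 (-1.30 ± 0.06, edgeR adjusted p = 9.2e-13) and ARN2 (-1.09 ± 0.06, edgeR adjusted p = 4.0e-11). They were followed by FIT3 (-0.87 ± 0.05, edgeR adjusted p = 4.1e-11) and SIT1 (-0.80 ± 0.06, edgeR adjusted p = 2.4e-09). ENB1 and FIT1 passed at -0.19 ± 0.05 and -0.35 ± 0.09, and FTR1 at 0.16 ± 0.05. The value of ENB1 contains the WT capture for which the study picked it, and is not independent of that choice. With library totals alone ENB1 and FIT1 missed the test, at -0.10 and -0.25. With all 18 libraries in 1 fit FTR1 missed it at 0.10. ARN1, FET3 and FRE1 did not pass, although FRE1 passed at -0.27 with all 18 libraries and at -0.32 with the length trend removed.

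The levels behind the interaction differed from gene to gene. For ARN2 the NADcapPro levels of both strains were within 1.11-fold of each other and the RNA-seq levels 2.50-fold apart, whereas for FIT2 the NADcapPro level was lower and the RNA-seq level higher in xrn1-H41A. With library totals alone ARN2 stood at -0.996, just under the limit of the call, and FIT2 at -1.20. With the length trend removed ARN2 stood at -1.17 and FIT2 at -1.20, so both remained called.

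For SPAAC, 0 of 10 members were called in either direction by edgeR, and 0 by DESeq2, although 7 had an unadjusted p under 0.05. Among 6010 transcripts, 0.0998% were called higher and 0.566% lower. Passing were 1 member that was higher, SIT1 (0.53 ± 0.06, edgeR adjusted p = 5.9e-06), and 2 that were lower, ARN2 (-0.21 ± 0.05, 0.0053) and FIT3 (-0.20 ± 0.05, 0.0057), against 9.55% and 14% of transcripts. The values of ARN2 and FIT3 missed the test when any 1 of the 6 RNA-seq libraries was left out. Each such omission also moved the median of all transcripts, from -0.043 to between 0.0499 and 0.0572. Loss of a library and shift of scaling were not told apart. The strain difference of SIT1 was 2.81-fold in SPAAC and 1.93-fold in RNA-seq.

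The effect of Dcs1 was read by setting NADcapPro against SPAAC, which differ by that treatment. In xrn1-H41A, 2 of 10 members were called lower, FIT2 and FIT3, against 17.8% of 6039 transcripts, and 0 were called higher, against 18.7%. Passing were 6 members that were lower and 3 that were higher, against 42.3% and 44.3% of transcripts. In WT, 2 members were past both limits and higher, ARN2 and, as a description only, ENB1, where 13.3% of 6017 transcripts were called higher, and 0 were called lower, where 11.3% were. Passing in WT were 5 in each direction (43% and 41.5% of transcripts), ENB1 among the 5 that were higher. Member medians were -0.26 in xrn1-H41A and 0.32 in WT, with 0.04 and 0.02 over all transcripts.

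FIT2 had 133, 131 and 134 CPM in xrn1-H41A NADcapPro, against 393, 383 and 365 CPM in xrn1-H41A SPAAC, a 3.31-fold lower level (log2 fold change -1.73 ± 0.03, edgeR adjusted p = 6.0e-17). FIT3 was 2.48-fold lower in the same comparison. With library totals alone, which moves the median of all transcripts to 0.85, both still passed but neither was called, FIT2 at -0.92 and FIT3 at -0.50. In WT the values of FIT2 and FIT3 were much smaller, at -0.25 ± 0.04 and -0.52 ± 0.03, and library totals alone turned them to 0.36 and 0.09, a scaling that moves the median of all transcripts to 0.63. ARN2 had 232, 219.7 and 207 CPM in WT NADcapPro, against 57.8, 57.2 and 59.0 CPM in WT SPAAC, a 3.43-fold higher level (log2 fold change 1.78 ± 0.04, edgeR adjusted p = 1.3e-18). As a description, ENB1 was 2.20-fold higher in WT NADcapPro than in WT SPAAC. ARN1 lay just under the limit in WT at 0.99 ± 0.05, and was called at 1.01 without the second WT SPAAC library, at 1.03 without the third WT NADcapPro library and at 1.13 in a fit of all 18 libraries. In xrn1-H41A the transporters ARN1, ARN2 and ENB1 were 1.55-, 1.71- and 1.69-fold higher in NADcapPro and became called with library totals alone, at 1.44, 1.58 and 1.56 on the log2 scale, and SIT1 was lower at -0.70 ± 0.03, although library totals alone, with the median of all transcripts at 0.85, turned it to 0.10.

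The other metal lists were also read in NADcapPro over RNA-seq. Single genes of these lists were not followed under the alternatives, among them removal of the length trend. Of the 16 other iron regulon genes, 4 were higher and 10 lower in xrn1-H41A, with 3 called, all lower, and 4 were higher and 7 lower in WT, with 1 called. The shares of all transcripts were 43% higher, 41.4% lower, 14.3% called higher and 9.87% called lower in xrn1-H41A, and 41.1%, 40.5%, 13.1% and 9.85% in WT. FRE5 (log2 fold change -1.11 ± 0.05) and TIS11 (-1.03 ± 0.07), an RNA-binding protein that speeds the decay of mRNAs for iron-requiring proteins, were among the 3. The third was LSO1, with 1.23, 0.99 and 1.39 CPM in xrn1-H41A NADcapPro, against 3.18, 2.83 and 2.06 CPM in RNA-seq (-1.14 ± 0.22, edgeR adjusted p = 1.8e-04). In WT LSO1 was instead the 1 called higher, at 1.16 ± 0.13.

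The same shares of all transcripts apply to the remaining lists. Of 9 genes of iron sensing and storage, 4 were higher and 3 lower in each strain, with 1 called higher in each. In xrn1-H41A 2 were called lower, GRX3 and FRA1, whose proteins form a complex with that of BOL2 to hold back Aft1, at -1.43 ± 0.04 and -1.16 ± 0.04. BOL2 was higher in both strains, at 1.33 ± 0.04 in xrn1-H41A and 1.25 ± 0.04 in WT. Among 13 genes of iron-requiring proteins, 5 were higher and 7 lower in xrn1-H41A, where ACO1 (-1.81 ± 0.03) and LEU1 (-1.55 ± 0.03), an iron-sulfur enzyme of leucine synthesis, were the 2 called. ACO1 had 163, 162 and 157 CPM in xrn1-H41A NADcapPro, far under its 571 to 588 CPM in RNA-seq. In WT 4 of the 13 were higher and 8 lower, and BIO2, which makes biotin, was the 1 called (1.02 ± 0.05). Of 7 copper regulon genes tested, 2 were higher and 5 lower in xrn1-H41A, and 3 were higher and 3 lower in WT. The copper transporters CTR2 and CTR3 were called higher in both strains (1.22 ± 0.05 and 1.39 ± 0.09 in xrn1-H41A, 1.06 ± 0.06 and 1.42 ± 0.10 in WT), and CTR1 was called lower in xrn1-H41A (-1.39 ± 0.04). Of 6 zinc regulon genes, 4 were higher and 2 lower in each strain. ZPS1 was called higher in both strains (1.93 ± 0.05 in xrn1-H41A and 1.40 ± 0.07 in WT) and ZRT1 was called higher in WT (1.32 ± 0.05).

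The members did not share a single pattern over the 6 groups. Each gene was centred on its own mean of log2(CPM + 1), and likeness was measured as the root mean square difference between such profiles. Members lay between 0.21 (FIT1) and 0.68 (FIT2) from their mean profile, and the 5 nearest of 5447 other transcripts, at 0.04 to 0.11, were CRZ1, YMD8, PRP40, CTH1 and MIG1. The members closest to each other were FET3 and FRE1, at 0.19, and FIT2 and FIT3, at 0.22. For FIT2 no other transcript was nearer than FIT3, the nearest being HSK3 at 0.26. For the other 9 members between 26 and 818 non-members were nearer than the nearest member. FIT2 was also the member farthest from ARN1, ARN2, SIT1, ENB1, FIT1 and FET3, at up to 1.15 for ENB1. These distances rest on 6 group means that share libraries and scaling and are a description only.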

How the data were processed

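The authors trimmed reads with fastp 0.23.2, removed reads that hisat2 aligned to rRNA, and estimated counts for 6106 RefSeq transcripts of assembly R64 with kallisto 0.48.0. The deposited file holds these estimated counts per transcript, rounded to whole numbers, with effective lengths. Libraries were made with SMART-Seq HT and Nextera XT. SPAAC and NADcapPro started from polyA RNA, and the input of RNA-seq is not given in the sources used here. Reads carry no molecular identifiers. Of 20 libraries in the file, 2 from reactions without ADPRC were not used. The sample titles name a negative control for each strain, but the labels in the file could not be tied to either.

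Differences were tested over all transcripts with edgeR 4.0.16 in R 4.3.3 (quasi-likelihood F test, TMM, filterByExpr, only the libraries compared, Benjamini-Hochberg adjustment), standard errors coming from the F statistic. TMM was thus estimated anew per comparison, and CPM over 18 libraries can differ slightly from the fitted fold. TPM was recomputed from counts and effective lengths. Python 3.11.15 with pandas 2.3.3 and NumPy 2.4.6 did the rest. The test was run on simulated counts in which few transcripts changed, which cannot show how the scaling behaves where most transcripts differ. Shared runs were counted at 31 bases, taken as the default of kallisto. Promoters and positions came from the R64 RefSeq annotation, in which 6098 transcripts matched with equal length.

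All members are named. From the other lists, up to 3 called genes per list and direction with the largest change in the RNA-seq strain comparison or in NADcapPro over RNA-seq are named, and the rest given as counts. CUP1-1 has no sequence of its own and was not tested in RNA-seq. Members and lists were chosen with earlier results of these data known. Alternatives were size factors from DESeq2 1.42.0 and its Wald test, scaling by library totals, keeping scarce transcripts, a joint model of all 18 libraries, a block on replicate number, subtraction of a length trend (lowess, span 0.3) without or with that block, and omission of each library in turn. Replicate pairs differed by more than sampling noise (chi-square per transcript 3.04 to 13.1).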

Additional observations from a re-analysis of the deposited data

Results flagged for a closer look

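A pair of members differed between the strains in NADcapPro capture, by a test of the difference itself. For FIT2 the log2 difference in NADcapPro over RNA-seq, xrn1-H41A minus WT, was -1.299 (edgeR adjusted p = 9.2e-13). All 3 xrn1-H41A libraries lay below all 3 WT libraries in NADcapPro and above them in RNA-seq. Of all transcripts, 43.1% lay all below in NADcapPro and 41.1% all above in RNA-seq. For ARN2 the difference was -1.093 (edgeR adjusted p = 4.0e-11), with NADcapPro levels of 241 to 254 CPM in xrn1-H41A and 207 to 232 CPM in WT. Both comparisons within a strain share its RNA-seq libraries with the comparison of strains in RNA-seq. Their cause was not tested.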

How the results depend on the processing

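With TMM scaling, 86 of 110 member values passed the test. Under the alternatives, 1477 of 1660 recomputed values stayed on their side of the threshold, with the same sign if they had passed. Of the rest, 76 kept their sign and no longer passed, 83 newly passed and 24 that had passed changed sign. The 1477 and 83 include 32 values, of 11 results that had missed the test, that changed sign. Library totals alone turned FTR1 to 0.0627 and FIT1, FTR1 and FRE1 to 0.0716, 0.26 and 0.21 in the strain comparisons of SPAAC and of NADcapPro. They turned FTR1 to -0.25 in SPAAC over RNA-seq and FIT3 to 0.13 in NADcapPro over RNA-seq, both in xrn1-H41A. In NADcapPro over SPAAC they turned SIT1, FET3 and FTR1 to 0.10, 0.39 and 0.70 in xrn1-H41A, and FIT2, FIT3, FET3, FTR1 and FRE1 to 0.36, 0.0875, 0.46, 0.50 and 0.20 in WT. With the length trend removed, SPAAC over RNA-seq in xrn1-H41A became -0.0218 for FTR1 and 0.17 for FRE1, and FTR1 in NADcapPro over SPAAC became 0.10 in xrn1-H41A and 0.0338 in WT. With the replicate block added these were -0.0215, 0.17, 0.10 and 0.0341. All 18 libraries in one fit gave FTR1 0.10 in xrn1-H41A and 0.0386 in WT there.

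Members called changed as follows. In the strain comparisons, library totals gave 3 against 2 in RNA-seq (SIT1 added) and the length trend removed, with or without the block, 2 against 3 in SPAAC (ARN2 lost). In SPAAC over RNA-seq, library totals gave 4 in xrn1-H41A, FIT2 higher and ARN1, ARN2 and ENB1 lower, against 2. In WT they gave 5, FIT2 higher and ARN1, ARN2, SIT1 and ENB1 lower, against 3. FIT3 lost its call in both strains. There the length trend removed gave 1 in xrn1-H41A and 0 in WT with or without the replicate block, and all 18 libraries gave 1 in xrn1-H41A. In NADcapPro over RNA-seq the length trend removed, with or without the block, gave 0 in xrn1-H41A and 1 in WT, against 1 and 2, and library totals gave 0 in xrn1-H41A. In NADcapPro over SPAAC, library totals gave 3 higher (ARN1, ARN2 and ENB1) and 0 lower in xrn1-H41A, against 0 higher and 2 lower (FIT2 and FIT3), and 5 against 2 in WT, where all 18 libraries gave 3 (ARN1 added). Library totals gave 1 against 2 for the strain by NADcapPro interaction. Each library left out in turn gave 0 to 1 in xrn1-H41A NADcapPro over RNA-seq and 2 to 3 in WT NADcapPro over SPAAC, and the main count elsewhere.

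The replicate numbers did not pair the libraries (correlation of deviations -0.196 to 0.151 over 11 comparisons). With the number as a block, 0 of 11 member counts changed, 2 values no longer passed, 3 newly passed, and the largest change was 0.0103 on the log2 scale.

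Over all transcripts, library totals gave, in the strain comparisons, 672 called higher and 97 lower in RNA-seq (TMM 459 and 151), 452 and 126 in SPAAC (307 and 196) and 1292 and 178 in NADcapPro (740 and 550). They gave 46 and 1417 in xrn1-H41A SPAAC over RNA-seq (262 and 826), 71 and 1349 in WT (285 and 950), 1275 and 318 in xrn1-H41A NADcapPro over RNA-seq (867 and 597), and 992 and 403 in WT (787 and 593). They gave 2637 and 318 in xrn1-H41A NADcapPro over SPAAC (1128 and 1072), 1996 and 196 in WT (802 and 680), and 340 and 127 in the strain by NADcapPro interaction (254 and 178). Length trend removed left 77 and 310 in xrn1-H41A SPAAC over RNA-seq, 78 and 278 in WT, 457 and 434 in WT NADcapPro over RNA-seq, and 7 and 21 in the strain by SPAAC interaction (6 and 34). All 18 libraries gave 172 and 948 in xrn1-H41A SPAAC over RNA-seq, 1473 and 813 in xrn1-H41A NADcapPro over SPAAC, and 1011 and 517 in WT. In the strain by SPAAC interaction DESeq2 gave 14 and 26, its size factors 11 and 25, and each RNA-seq library left out 9 to 14 and 15 to 26. In the strain by NADcapPro interaction no filter gave 197 and 238, and leaving out the first WT NADcapPro library 200 and 241. No cause of these shifts was tested.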
